A study of Mus musculus with 18 samples.

Results

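Integrins and laminins were followed over the 6 groups of cultures in this array data set. The members are the probes that the array table names as an integrin subunit (ITGA or ITGB followed by a number or a subunit letter) or as a laminin chain (LAMA, LAMB or LAMC followed by a number), and that were detected on at least 3 of the 18 arrays. Detection means a deposited detection p-value under 0.05 against the negative control beads of the array. Of 80 such probes in the table, 38 passed, 28 of integrins and 10 of laminins, out of 22987 probes that passed among all 45281. They stand for 26 genes, 18 of 26 integrin genes and 8 of 10 laminin genes, out of 16446 genes tested. The choice used detection only and no difference between groups. The naming pattern leaves out the laminin beta chain that the table calls LAMB1-1, which is given with the partner genes.

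Integrins are cell surface receptors made of 1 alpha and 1 beta subunit, and the alpha subunit largely sets the ligand. ITGA3, ITGA6 and ITGA7 bind laminin, ITGA1, ITGA2, ITGA10 and ITGA11 bind collagen, and ITGA5, ITGA8, ITGAV and ITGA2B bind proteins with an arginine-glycine-aspartate motif such as fibronectin. Laminins are trimers of an alpha, a beta and a gamma chain and form the sheet of the basement membrane onto which collagen IV, nidogen and perlecan are assembled. The trimer with LAMA1 is a laminin of the early embryo, and trimers with LAMA2, LAMA4 and LAMA5 are found, though not only, in mesenchymal, vascular and epithelial tissues.

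The study asked which signals direct mouse embryonic stem (ES) cells toward endothelium, and grew them for 3 days in serum-free medium on PA6, a mouse stromal line. The ES cells are a line with EGFP knocked in at the tau locus, so that both cell types are lines. Illumina bead arrays measured 3 biological replicates of each group. The groups are co-cultures (ES/PA6) and mono-cultures (PA6) that received FGF2 (20 ng/ml), BMP4 (10 ng/ml) or neither factor (-GFs). These doses are those of the labels, and the methods of the study name a lower BMP4 dose for cultures grown on slides. The mono-cultures received the same factors and show the stroma without ES cells.

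All values are log2 intensities after background correction and normalization, and a fold change is a difference of such values. The number of arrays, 3 a group, limits the precision, and the p-values measure the spread between these replicates. By the labels the replicates are matched across conditions, and the main fit does not use this matching, so shifts between replicates stay in that spread. A fit blocked on replicate number is given among the alternatives. Between 19365 and 20412 probes were detected on a co-culture array and between 17125 and 18391 on a mono-culture array. A gene counted as called where limma gave it an adjusted p under 0.1 (Benjamini-Hochberg, over all genes tested) and its log2 fold change was beyond 1 in either direction. The values given for second probes are fitted differences, which depend on the background where such a probe was not detected, and no bound is given for them. The labels held against marker genes. All 7 tested genes of pluripotent cells were higher in the co-cultures than in PA6 cells alone, and 7 of 8 stromal genes were lower. SOX2, TDGF1, UTF1 and FGF4 were detected on all 9 co-culture arrays and on no mono-culture array. The other tested genes of the list were not absent from PA6 cells. POU5F1 had a probe detected on all 18 arrays, and NANOG and ZFP42 had probes detected on 10. In such mixed cultures fewer cells of a type and less RNA per cell cannot be told apart.

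The subunits fell into widely and narrowly detected genes. ITGA2B, ITGA5, ITGA10, ITGA11, ITGAV, ITGB1, ITGB4, ITGB5, LAMB2 and LAMC1, 10 genes, were detected on all 18 arrays. By the probe that stands for each gene, ITGA3, ITGAE, ITGB7 and LAMA3, 4 genes, were detected on all 9 co-culture arrays and on no mono-culture array, and 0 genes showed the opposite pattern. Another ITGAE probe was detected on replicate 1 of the PA6 BMP4 arrays. ITGA4, the alpha subunit of the receptor for VCAM1 and fibronectin, passed on 3 arrays. The 10 genes that did not pass were ITGA2, ITGA7, ITGA9, ITGAM, ITGAX, ITGB3, ITGB6, ITGB8, LAMB3 and LAMC3. Among them a probe of ITGB8 was detected on 2 arrays, and the other 9 genes were detected on 0. At the threshold, the ITGA4 probe just inside had a mean of 5.71, and the probes just outside, detected on 2 arrays, had means of 5.55 (ITGA11), 5.74 (ITGA4) and 5.70 (ITGB8).

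**Figure D1:**
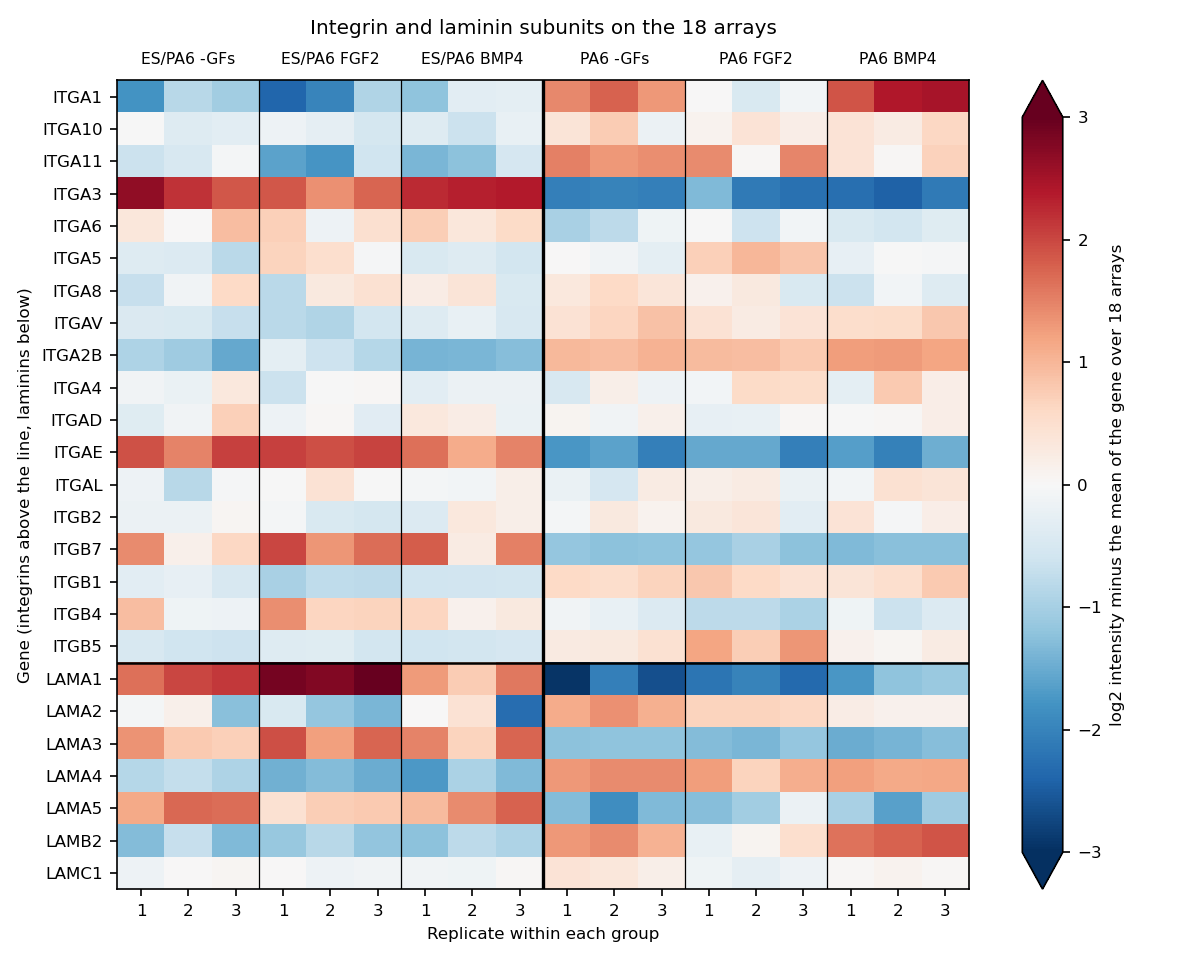
The log2 intensity of 25 of the 26 genes (rows) on each of the 18 arrays (columns, replicates 1 to 3 of the 6 groups), minus the mean of the gene over all arrays, with colours capped at 3 units. ITGA3, ITGAE, ITGB7, LAMA1, LAMA3 and LAMA5 are high on the 9 co-culture arrays, ITGA11, ITGA2B and LAMA4 on the 9 mono-culture arrays, and ITGA1 and LAMB2 on the mono-culture arrays without FGF2.

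Without growth factors, co-cultures and PA6 cells alone differed in their laminin alpha chains and their integrin alpha subunits. LAMA1, LAMA5, LAMA3, ITGA3, ITGAE, ITGB7 and ITGA6 were higher in the co-cultures, and ITGA1, LAMB2, LAMA4, ITGA2B, ITGA11, LAMA2 and ITGAV were lower. These 14 of 26 genes stand beside 39% of all genes called, with 7 higher beside 19.4% and 7 lower beside 19.5%. By adjusted p alone 19 of 26 passed, beside 71.2% of all genes. Genes such as LAMA3 passed detection only through the co-cultures, so the count is a description and no sign of a difference particular to the members. The median change was -0.27 over the 26 genes and -0.11 over all genes tested.

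Of the 5 laminin alpha chains, 3 were higher and 2 lower in the co-cultures. LAMA1 measured 9.55, 9.89 and 10.02 on the co-culture arrays without growth factors and 4.95, 5.85 and 5.25 on those of PA6 cells alone, where it was not detected on any. It was at least 11.5-fold higher in the co-cultures (adjusted p = 1.49e-10). LAMA5, the alpha chain of most epithelial and vascular basement membranes, measured 8.58, 9.15 and 9.11 in the co-cultures and 6.13, 5.57 and 6.10, not detected, in PA6 cells, a difference of at least 6.25-fold (adjusted p = 9.44e-08). These alpha chains did not overlap between the culture types. LAMA3, the alpha chain of the laminin under stratified epithelium, was at least 2.04-fold higher (adjusted p = 6.49e-07) and not detected in PA6 cells. LAMA4, of vessels and mesenchyme, had a log2 change of -2.21 ± 0.172 (SE), from 8.53 ± 0.0689 in PA6 cells to 6.32 ± 0.110 in co-cultures (SD, n = 3), and its second probe, not detected in these co-cultures, gave -1.33. LAMA2, of muscle and mesenchyme, had a log2 change of -1.57 ± 0.507 with its groups apart (SE; adjusted p = 0.0118).

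The laminin beta chains were lower with ES cells. LAMB2, the beta chain of mature basement membranes, measured 9.12, 9.71 and 9.10 in the co-cultures and 11.71, 11.83 and 11.46 in PA6 cells, a difference of -2.35 ± 0.202 in log2 fold (SE; adjusted p = 3.60e-08). LAMC1, the gamma chain shared by most laminins, measured 11.84, 12.01 and 12.06 against 12.41, 12.33 and 12.18, and the difference of -0.34 ± 0.106 (SE; adjusted p = 0.00991) stayed under the fold threshold, as did -0.57 at its second probe. LAMB1-1 (now Lamb1), the beta chain of the early embryo, was also lower, at -1.19 ± 0.276 (SE; adjusted p = 0.00115).

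Both laminin-binding alpha subunits that were tested, ITGA3 and ITGA6, were higher with ES cells. ITGA3 measured 9.98, 9.48 and 9.17 in co-cultures and 5.25, 5.32 and 5.26 in PA6 cells, where it was not detected, at least 9.47-fold higher (adjusted p = 1.01e-10). ITGA6 measured 6.87, 6.54 and 7.44 against 5.55, 5.74 and 6.39, again not detected in PA6 cells, and was at least 1.57-fold higher (adjusted p = 0.00241). Its second probe, not detected in PA6 cells, gave a fitted log2 change of 1.72. The fitted change of ITGA6 was 1.06 and close to the threshold, and it was 0.81 without replicate 3 of the co-cultures, 0.88 without replicate 1 of the PA6 cells and 0.98 without their replicate 2. ITGB4, which pairs with ITGA6 in hemidesmosomes, differed by 0.46 ± 0.262 (SE; adjusted p = 0.133), with -0.22 at its second probe.

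Collagen-binding subunits were lower with ES cells. ITGA1 measured 6.06, 7.02 and 6.79 in co-cultures and 9.28, 9.61 and 9.15 in PA6 cells, a log2 change of -2.72 ± 0.343 (SE; adjusted p = 2.94e-06). Its second probe, detected on 1 of these PA6 arrays and on no co-culture array, gave -1.08. ITGA11, a collagen receptor of fibroblasts, was lower, at -1.79 ± 0.365 (SE; adjusted p = 0.000374), with -1.78 at its second probe. ITGA10 had an adjusted p under 0.1 and a smaller fold, at -0.57 ± 0.200 (SE; adjusted p = 0.0193).

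Among the subunits that bind fibronectin and related ligands, ITGAV measured 7.31, 7.28 and 7.06 in co-cultures against 8.19, 8.40 and 8.62, a log2 change of -1.18 ± 0.141 (SE; adjusted p = 1.52e-06). The second ITGAV probe gave 0.08 (adjusted p = 0.750), so the probes of this gene disagreed, and without background correction the change of the first was -0.82, under the fold threshold. ITGA2B, the platelet fibrinogen receptor, was lower, at -2.16 ± 0.154 (SE; adjusted p = 4.08e-09), from 8.66 ± 0.0649 in PA6 cells to 6.50 ± 0.322 in co-cultures (SD, n = 3), and its second probe gave -1.06. The megakaryocyte markers on the array, GP9 and PPBP, were detected on 0 arrays. ITGA5, the main fibronectin receptor, measured 8.66, 8.65 and 8.25 against 9.06, 8.94 and 8.76, a difference of -0.40 ± 0.170 (SE; adjusted p = 0.0482), with -0.53 at its second probe. ITGA8 differed by -0.49 ± 0.346 (SE; adjusted p = 0.228).

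ITGB1, the beta subunit shared by the largest family of integrins, measured 9.02, 9.09 and 8.85 in co-cultures and 9.94, 9.85 and 9.99 in PA6 cells. The groups did not overlap, and the difference was -0.94 ± 0.128 (SE; adjusted p = 6.49e-06), with -1.08 at the second probe. ITGB5, which pairs with ITGAV, was lower, at -0.91 ± 0.134 (SE; adjusted p = 1.47e-05). Both stayed under the fold threshold, and both passed it under median scaling, at -1.05 and -1.13.

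Of the 7 subunits known from leukocytes, 5 were tested and ITGAE and ITGB7, which pair with each other on lymphocytes of the gut, were higher in co-cultures. ITGAE measured 9.19, 8.78 and 9.35 in co-cultures and 5.53, 5.67 and 5.23, not detected, in PA6 cells, at least 6.99-fold higher (adjusted p = 1.69e-10). Its other probes, not detected on these PA6 arrays, gave fitted log2 changes of 3.74 and 0.95. ITGB7 was at least 1.50-fold higher (adjusted p = 7.67e-05). ITGAL, ITGB2 and ITGAD differed by -0.18, -0.21 and 0.04 and were not called. Of 8 leukocyte markers, 4 were tested. PTPRC, which marks nearly all leukocytes, was detected on 0 arrays, while CD68 and CD3E were higher by 3.15 and 2.07, LYZ2 was lower, at -1.79, and CSF1R differed by -0.60. The summed level of the tested leukocyte markers ran from 8.95 to 9.74 in co-cultures and from 8.21 to 8.47 in PA6 cells, and its part in these values was not tested.

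**Figure D2:**
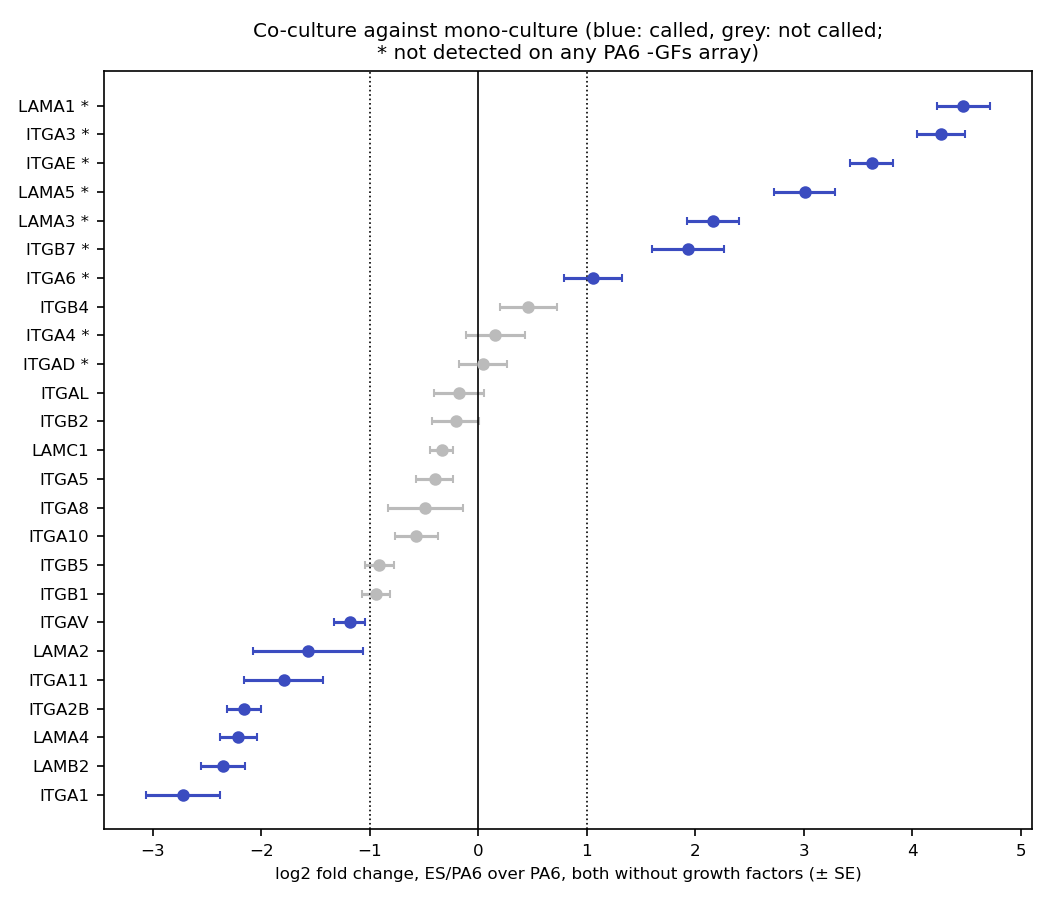
The log2 fold change (x axis, ± SE) of 25 of the 26 genes (y axis) between co-cultures with ES cells and PA6 cells alone, both without growth factors, 3 arrays each, with blue for called genes, grey for the rest and dotted lines at the fold threshold. The 7 genes on the right, from LAMA1 at 4.47 to ITGA6 at 1.06, were not detected in PA6 cells, so these fitted values depend on the background and the text gives their bounds.

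Among the partner genes of the matrix and of the adhesion sites more were called lower than higher in the co-cultures, where 39% of all genes were called and 19.5% were called lower. Of 18 tested basement membrane partners, 1 was higher (COL18A1, 1.32 in log2 fold) and 8 were lower, among them NID1 (nidogen) at -2.31, the calcium-binding SMOC1 at -1.87 and the collagen IV chain COL4A5 at -1.72. Of 17 tested integrin ligands, 4 were higher and 6 lower. SPP1 (osteopontin) was higher by 3.57 and ICAM1, a ligand of leukocyte integrins, by 3.43, while FN1 (fibronectin) was at -1.77 and THBS1 (thrombospondin) at -2.17. Of 32 tested proteins of integrin adhesion sites, 16 were lower and 1 was higher. The lower ones included the scaffold LIMS2 at -3.19 and the tensin TNS1 at -2.60, and the higher one was ITGB3BP at 1.49, a protein also known from the centromere. The medians of the lists were -0.94, -0.56 and -1.04. Of the 8 stromal markers, COL1A1 and the other 6 called ones had changes between -2.15 and -1.39, and their summed level ran from 15.5 to 15.7 in co-cultures and from 16.7 to 16.8 in PA6 cells. The epithelial markers went the other way with ITGA3, LAMA3 and LAMA5, from 8.84 to 9.27 in PA6 cells and from 11.9 to 12.1 in co-cultures, with 3 of 5 higher. The part of cell composition in these differences was not tested.

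FGF2 took few of these genes past both thresholds in the co-cultures. LAMA1 rose and was the only 1 of 26 genes called, beside 3.34% of all genes called and 2.14% called higher. LAMA1 measured 10.76, 10.67 and 11.04 with FGF2, above all 3 arrays without growth factors, a log2 change of 1.0 ± 0.243 (SE; adjusted p = 0.0201). The call sits on the fold threshold, and the change was 0.87 without replicate 1 of the -GFs co-cultures, 0.89 without replicate 3 of the FGF2 co-cultures and 0.93 without background correction. The median change was -0.06 over the 26 genes and -0.01 over all genes.

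By adjusted p alone, 6 of 26 genes passed, beside 9.05% of all genes, with LAMA1, ITGA5 and ITGA2B higher and ITGB1, LAMA4 and LAMA5 lower. At an unadjusted p under 0.05 there were 12 of 26, beside 17.8% of all genes. ITGA5 measured 9.71, 9.54 and 9.01 with FGF2 and lay above the -GFs arrays, a difference of 0.90 ± 0.170 (SE; adjusted p = 0.00395), with 0.93 at its second probe. ITGA2B was higher by 0.59 ± 0.154 (SE; adjusted p = 0.0298), with 0.35 at its second probe (adjusted p = 0.369). ITGB1 measured 8.35, 8.57 and 8.54, below all -GFs arrays, a difference of -0.50 ± 0.128 (SE; adjusted p = 0.0272), and its second probe gave -0.65. Among the laminin chains, LAMA5 measured 7.90, 8.17 and 8.22 with FGF2, all below the -GFs arrays, a difference of -0.85 ± 0.280 (SE; adjusted p = 0.0948). The probe that stands for LAMA4 was not detected with FGF2 and was at least 1.36-fold lower (adjusted p = 0.0594). The second LAMA4 probe was not detected on any -GFs co-culture array, so that it could show no fall, and it was detected on 1 of 3 FGF2 arrays. LAMA3, ITGB7 and ITGB4 had differences of 0.68, 0.93 and 0.69 with adjusted p of 0.117, 0.123 and 0.153, and their groups overlapped. Without replicate 1 of the -GFs co-cultures, ITGB4, ITGB7 and LAMA5 passed both thresholds at 1.05, 1.27 and -1.03.

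By the probes that stand for them, ITGA6, ITGAV and LAMC1 had smaller differences with FGF2 in the co-cultures. ITGA3 and LAMA2 had differences of -0.57 and -0.61 that did not pass (adjusted p = 0.171 and 0.621). ITGA6 measured 7.24, 6.36 and 7.0 with FGF2 (difference -0.08 ± 0.269, SE), ITGAV 6.94, 6.84 and 7.21 (difference -0.22 ± 0.141) and LAMC1 12.01, 11.85 and 11.89 (difference -0.05 ± 0.106). Their adjusted p were 0.936, 0.487 and 0.886, and their second probes gave 0.46, -0.51 and 0.24. ITGA11 measured 9.04, 8.89 and 10.05 with FGF2 and 10.00, 10.18 and 10.60 without, a difference of -0.93 ± 0.365 (SE; adjusted p = 0.170), with -0.99 at its second probe. Without replicate 3 of the FGF2 co-cultures, ITGA11 passed at -1.30 and ITGA5 at 1.11.

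Among the partner genes, TNC moved most. Of all genes, 3.34% were called in this comparison, and the lists were chosen with earlier results of these data known. Of 17 tested integrin ligands, 5 were called with FGF2 in co-cultures. TNC (tenascin C) rose by 2.92 ± 0.400 (SE), SPP1 by 1.95 ± 0.586, ICAM1 by 1.33 ± 0.266 and TGFBI by 1.10 ± 0.367, and THBS1 fell by 1.40 ± 0.225. In the basement membrane list 1 of 18 genes was called, COL15A1, a collagen of the basement membrane zone, which rose by 1.28 ± 0.308 (SE). In the adhesion list 1 of 32 was called, LIMS2, at 1.11 ± 0.206 (SE). Alongside, the summed level of the pluripotency markers ran from 15.1 to 15.4 with FGF2 and from 14.4 to 15.0 without, with NANOG and ZFP42, 2 of 7, called higher. The stromal markers ran from 15.1 to 15.5 and from 15.5 to 15.7. Endoderm markers, relevant to LAMA1 since parietal endoderm makes it, ran from 11.1 to 11.7 and from 11.0 to 11.2, with 0 of 4 called, and GATA4, FOXA2 and AFP were detected on 0 arrays. In PA6 cells alone without growth factors the endoderm list ran higher, from 12.8 to 13.0. Its GATA6 and DAB2 had probes detected on all 18 arrays, so its summed level cannot separate endoderm from stroma. The part of these markers in the values above was not tested.

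In PA6 cells alone, FGF2 lowered a collagen receptor and a laminin beta chain. ITGA1 and LAMB2 fell, 2 of 26 genes, beside 5.27% of all genes called and 2.56% called lower. ITGA1 went from 9.28, 9.61 and 9.15 without growth factors to 7.86, 7.38 and 7.75 with FGF2, a log2 change of -1.68 ± 0.343 (SE; adjusted p = 0.00307), and its second probe, detected on 1 of 3 -GFs arrays and on no FGF2 array, gave -1.01. LAMB2 went from 11.71, 11.83 and 11.46 to 10.20, 10.49 and 10.93, a log2 change of -1.12 ± 0.202 (SE; adjusted p = 0.00111). Without replicate 1 of the FGF2 arrays the LAMB2 change was -0.95, under the fold threshold. The median change was -0.08 over the 26 genes and -0.01 over all genes.

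By adjusted p alone, 5 of 26 genes passed, beside 18.7% of all genes. ITGA5 measured 9.77, 10.05 and 9.88 with FGF2, above the 3 arrays without, a difference of 0.98 ± 0.170 (SE; adjusted p = 0.000808). Its second probe gave 1.14 (adjusted p = 0.00376). Without replicate 1 of the -GFs arrays the ITGA5 change was 1.05, and without replicate 1 of FGF2 it was 1.04, both past the fold threshold. ITGB5 measured 12.93, 12.49 and 13.07 with FGF2 and 12.03, 12.04 and 12.20 without, a difference of 0.75 ± 0.134 (SE; adjusted p = 0.00111). LAMC1 measured 11.88, 11.73 and 11.86, below the -GFs arrays, a difference of -0.49 ± 0.106 (SE; adjusted p = 0.00488), and -0.49 at the second probe.

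The shared and alpha v subunits differed less. ITGB1 measured 10.15, 9.94 and 9.77 with FGF2, a difference of 0.03 ± 0.128 (SE; adjusted p = 0.948), and ITGAV 8.17, 7.99 and 8.15, a difference of -0.30 ± 0.141 (adjusted p = 0.200). ITGA6 measured 6.51, 5.89 and 6.43 and was detected on 2 of 3 arrays (difference 0.39 ± 0.269). The second probes of ITGB1, ITGAV and ITGA6 gave 0.18, 0.24 and -0.25. LAMA1 measured 5.69, 5.89 and 5.57 and was not detected on any. ITGB4 measured 7.85, 7.86 and 7.69 with FGF2 and 8.53, 8.42 and 8.23 without, a difference of -0.59 ± 0.262 (SE; adjusted p = 0.161), while its second probe, not detected on any FGF2 array, gave -1.37 (adjusted p = 0.00237). LAMA5 was not detected without growth factors and was detected on 2 of 3 FGF2 arrays, at 6.17, 6.40 and 7.26. Its fitted difference of 0.67 ± 0.280 (SE; adjusted p = 0.133) did not pass, and the bound on its means was 1.24-fold.

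**Figure D3:**
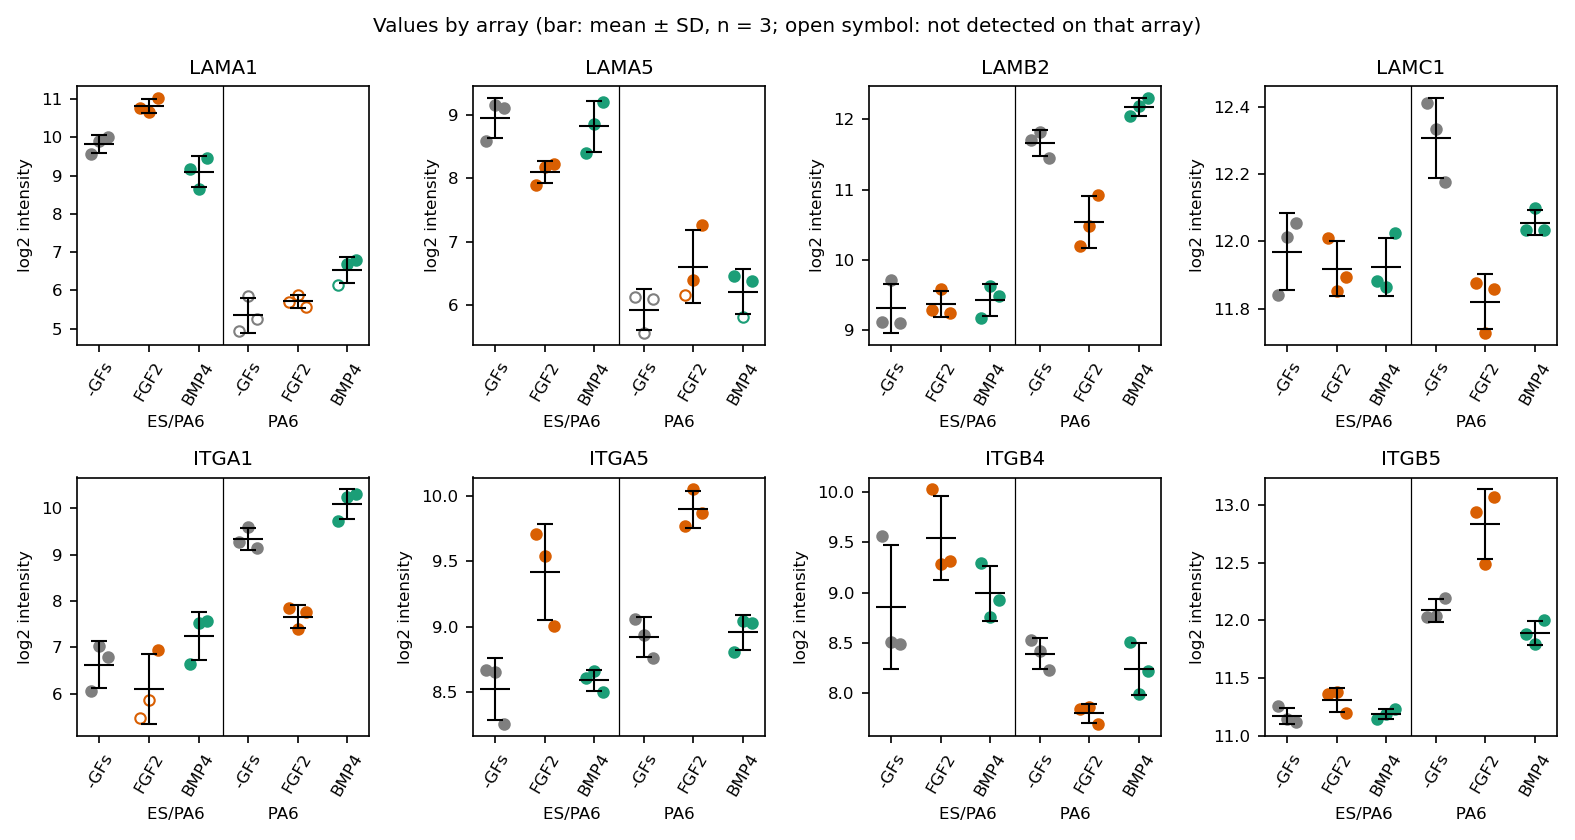
The log2 intensity (y axis) of 8 genes on each array, by group (x axis), with black bars for the mean ± SD of the 3 replicates and open symbols where the gene was not detected on that array. With FGF2, ITGA1 and LAMB2 sit below and ITGA5 and ITGB5 above the -GFs arrays in PA6 cells, LAMA1 sits above them in the co-cultures, and the y axes differ between genes and do not start at 0.

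For the members that carry these changes, the 250 bases before the RefSeq transcription start (assembly GRCm38.p6) are shown. ITGA1 and LAMB2 fell together with FGF2 in PA6 cells, ITGA5 was higher with FGF2 in both culture types, and LAMA5 had FGF2 differences of opposite sign in the culture types, as did ITGB4, which is not shown. Each is printed 5′ to 3′ on the strand of its gene. Of the 26 genes, 15 had a promoter in the RefSeq table, and LAMA1 did not. Capitals mark matches to 4 motifs searched on both strands: the AP-1 site TGANTCA, the GC box GGGCGG, the TEAD site GGAATG and the TATA box TATAAA.
ITGA1 (chr13:115101965-115102214, minus strand): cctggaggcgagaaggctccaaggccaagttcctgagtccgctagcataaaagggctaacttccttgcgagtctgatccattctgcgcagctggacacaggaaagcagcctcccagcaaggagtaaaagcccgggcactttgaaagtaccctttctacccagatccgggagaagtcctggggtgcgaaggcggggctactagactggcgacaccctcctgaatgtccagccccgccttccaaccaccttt
LAMB2 (chr9:108479612-108479861, plus strand): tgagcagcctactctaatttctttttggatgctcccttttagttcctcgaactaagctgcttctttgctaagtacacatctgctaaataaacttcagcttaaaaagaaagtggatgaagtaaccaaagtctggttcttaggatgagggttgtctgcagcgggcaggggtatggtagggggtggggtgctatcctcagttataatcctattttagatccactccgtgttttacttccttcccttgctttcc
ITGA5 (chr15:103366792-103367041, minus strand): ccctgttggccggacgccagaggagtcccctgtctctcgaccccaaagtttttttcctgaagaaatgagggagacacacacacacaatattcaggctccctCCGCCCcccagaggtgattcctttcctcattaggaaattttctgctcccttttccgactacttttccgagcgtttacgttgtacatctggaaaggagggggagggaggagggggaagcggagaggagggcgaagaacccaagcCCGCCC
LAMA5 (chr2:180225860-180226109, minus strand): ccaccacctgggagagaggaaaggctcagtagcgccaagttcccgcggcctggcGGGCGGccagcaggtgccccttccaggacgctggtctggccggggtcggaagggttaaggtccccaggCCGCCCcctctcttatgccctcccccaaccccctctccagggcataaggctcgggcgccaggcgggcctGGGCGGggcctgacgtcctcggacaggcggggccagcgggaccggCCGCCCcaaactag

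The windows of ITGA1 and LAMB2 held 0 matches to any of the 4 motifs, that of ITGA5 held 2 GC boxes and that of LAMA5 held 4. Over 32851 promoters of the same length, 32.7% held a GC box, 12.6% a TEAD site, 12.4% a TATA box and 6.75% an AP-1 site. Of the 16 promoters of the 15 members, 7 held a GC box, 2 a TEAD site, 0 a TATA box and 0 an AP-1 site. A match is a run of letters and not a bound site, and the absence of a match concerns these windows only.

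The partner genes of PA6 cells moved with FGF2 in both directions, beside 2.71% of all genes called higher and 2.56% called lower. These lists were chosen with earlier results of these data known. Of 17 ligands, 5 rose and 2 fell. SPP1 rose by 5.01 ± 0.586 (SE), TGFBI by 2.71 ± 0.367, TNC by 2.38 ± 0.400 and the matricellular CTGF and CYR61 by 2.11 ± 0.300 and 1.58 ± 0.552. THBS1 fell by 1.86 ± 0.225 and POSTN (periostin) by 1.25 ± 0.279. Of 32 adhesion site proteins, 5 fell and 0 rose. LIMS2 fell by 2.87 ± 0.206 (SE), and the other changes were -1.52 ± 0.179 for the tensin TNS3, -1.38 ± 0.228 for TNS1, -1.25 ± 0.360 for the scaffold NEDD9 and -1.06 ± 0.258 for TLN1 (talin), which links integrins to actin. The list's median was -0.16, beside -0.01 over all genes. Of 18 basement membrane partners only SDC4, a heparan sulphate co-receptor of ITGA5, was called, at 1.27 ± 0.116 (SE). The stromal markers ran from 16.4 to 16.7 with FGF2 and from 16.7 to 16.8 without, with POSTN, which is also in the ligand list, the 1 of 8 called.

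The FGF2 effect differed between the culture types for 3 of 26 genes, ITGB4, LAMB2 and LAMA5, beside 7.39% of all genes. The difference was tested as an interaction, the effect in co-cultures minus that in PA6 cells. LAMB2 differed by 0.06 in the co-cultures, at 9.29, 9.59 and 9.24 with FGF2 against 9.12, 9.71 and 9.10, and fell in PA6 cells, an interaction of 1.18 ± 0.285 (SE; adjusted p = 0.0148). LAMA5 had a difference of -0.85 in co-cultures and 0.67 in PA6 cells, an interaction of -1.52 ± 0.397 (SE; adjusted p = 0.0224). ITGB4 had 0.69 and -0.59, an interaction of 1.28 ± 0.370 (SE; adjusted p = 0.0378), and 2.14 at its second probe. By the probes that stand for them, none of the effects of ITGB4 and LAMA5 was called in either culture type by itself. The second ITGB4 probe passed both thresholds in PA6 cells, at -1.37, where it was not detected with FGF2.

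ITGA1 had an interaction of 1.15 ± 0.485 (SE; adjusted p = 0.158), which the second probe put at 1.03 (adjusted p = 0.0186) without being detected on any co-culture array. The ITGA1 interaction passed in a fit blocked on replicate number (adjusted p = 0.0349) and without replicate 1 of the FGF2 co-cultures, at 1.46. By adjusted p alone, 7 of 26 genes passed beside 15% of all genes, the other 4 being ITGA2B (0.68), ITGB1 (-0.52), ITGB5 (-0.61) and LAMC1 (0.44). The second probes gave 0.04 for ITGA2B, -0.83 for ITGB1 and 0.73 for LAMC1. For ITGA5 the interaction was -0.08 ± 0.240 (SE; adjusted p = 0.886), with differences of 0.90 and 0.98 in the culture types. These differences share no arrays, but both culture types hold PA6 cells and, per the labels, the same biological replicates, so they are not independent. In the partner lists 6 of 17 ligands, 4 of 32 adhesion proteins and 0 of 18 basement membrane partners had an interaction, beside 7.39% of all genes. Among them were LIMS2 at 3.98 ± 0.291, which rose in co-cultures and fell in PA6 cells, TNS3 at 1.91 ± 0.253 and SPP1 at -3.06 ± 0.829 (SE).

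BMP4 changed 0 of 26 genes in the co-cultures, beside 0.76% of all genes. At an unadjusted p under 0.05 there were 3, among them LAMA1 and LAMA4, beside 10.9% of all genes. LAMA1 measured 9.18, 8.66 and 9.46 with BMP4, all below the -GFs arrays, a difference of -0.72 ± 0.243 (SE; adjusted p = 0.222). LAMA4 had a difference of -0.49 ± 0.172 (SE; adjusted p = 0.242) and was detected on 1 of 3 BMP4 arrays. Its second probe, not detected on any array of either group, gave 0.16.

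The fibronectin, laminin and vitronectin receptors lay close to their -GFs values with BMP4. ITGA5 measured 8.61, 8.66 and 8.49, ITGA6 7.27, 6.87 and 7.10 and ITGAV 7.37, 7.53 and 7.27, with differences of 0.07, 0.13 and 0.18. ITGB1 measured 8.73, 8.75 and 8.78, just below the -GFs arrays (difference -0.23 ± 0.128, SE; adjusted p = 0.567), and LAMC1 11.88, 11.87 and 12.02 (difference -0.05 ± 0.106). The second probes of ITGA5, ITGA6, ITGAV, ITGB1 and LAMC1 gave 0.44, 0.45, -0.59, -0.17 and 0.31, and none passed. In the partner lists 0 of 18, 0 of 17 and 0 of 32 genes were called, beside 0.76% of all genes. The epithelial markers were higher with BMP4, from 12.4 to 13.0 against 11.9 to 12.1, with 3 of 5 called. The epithelial subunits LAMA3, LAMA5, ITGB4 and ITGA3 had differences of 0.34, -0.13, 0.14 and 0.09, and the second ITGB4 probe gave 0.42. The part of epithelial cells in these values was not tested.

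In PA6 cells BMP4 raised LAMA1, 1 of 26 genes, beside 1.41% of all genes called and 0.839% called higher. LAMA1 was not detected without growth factors, at 4.95, 5.85 and 5.25, and was detected on 2 of 3 BMP4 arrays, at 6.14, 6.68 and 6.79. It was at least 1.18-fold higher (adjusted p = 0.0145), with a fitted log2 fold change of 1.19 ± 0.243 (SE). Without replicate 1 of the PA6 -GFs arrays the change was 0.99, and without background correction 0.66, both under the fold threshold. The groups did not overlap, but the level stayed far below the 8.66 to 11.04 of LAMA1 in the co-cultures.

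Other members differed with BMP4 in PA6 cells without passing. Groups did not overlap for 9 of 26 genes that were lower, beside 10.3% of all genes, and for 4 that were higher, beside 11.1%. Of the 9, the 3 genes ITGA3, ITGB7 and LAMA3 were not detected on any array of either group, so their order is that of background values. ITGA11 measured 11.06, 10.68 and 11.34 with BMP4 against 12.16, 11.95 and 12.05, a difference of -1.03 ± 0.365 (SE; adjusted p = 0.197). LAMA2 had 8.33, 8.21 and 8.23 against 9.21, 9.47 and 9.15, a difference of -1.02 ± 0.507 (SE; adjusted p = 0.429). Both passed with the replicate number as a block (adjusted p = 0.0191 and 0.0969), and the second ITGA11 probe gave -1.01. LAMB2 measured 12.04, 12.19 and 12.30, above the -GFs arrays (0.51 ± 0.202, SE; adjusted p = 0.262), and ITGA1 9.73, 10.25 and 10.31, also above them (0.75 ± 0.343, SE; adjusted p = 0.370), with 0.53 at its second probe.

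The main fibronectin and vitronectin receptors gave small differences. ITGA5 measured 8.80, 9.04 and 9.03, ITGAV 8.27, 8.29 and 8.55 and ITGB1 9.73, 9.83 and 10.11, with differences of 0.04, -0.03 and -0.03. LAMC1 measured 12.04, 12.10 and 12.03, below the -GFs arrays (difference -0.25 ± 0.106, SE; adjusted p = 0.309), and ITGA6, at 6.05, 5.96 and 6.16, was not detected. The second probes of ITGA5, ITGAV, ITGB1 and LAMC1 gave -0.14, 0.03, -0.23 and -0.16. In the partner lists 0 genes were called, beside 1.41% of all genes, and LAMB1-1 had a difference of -0.99 ± 0.276 (SE; adjusted p = 0.0796). The BMP4 effect on LAMA1 differed between the culture types, with -0.72 in co-cultures and 1.19 in PA6 cells, an interaction of -1.91 ± 0.344 (SE; adjusted p = 0.0253). It was the 1 of 26 genes with such an interaction, beside 0.559% of all genes. The interaction ran from -2.16 to -1.29 over the alternatives, and LAMA1 was near the background in PA6 cells.

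**Figure D4:**
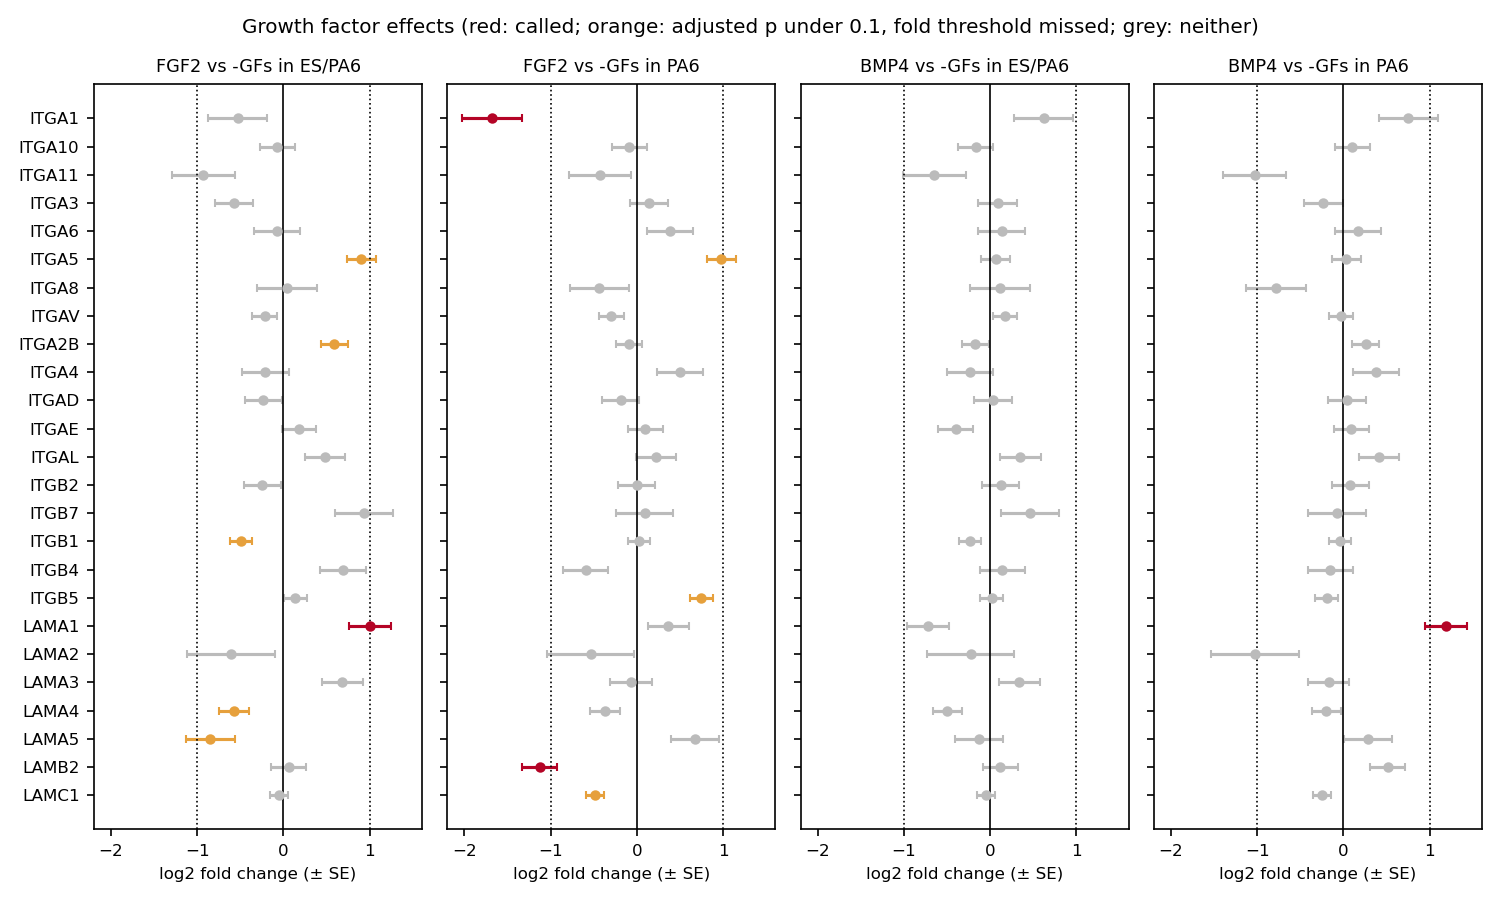
The log2 fold change (x axis, ± SE) of 25 of the 26 genes (y axis) with FGF2 or BMP4 against no growth factor in each culture type, 3 arrays a group, in red for called genes, orange for genes that passed the adjusted p only and grey for the rest. The called genes are LAMA1 at 1.0 (FGF2, co-cultures), ITGA1 at -1.68 and LAMB2 at -1.12 (FGF2, PA6 cells) and LAMA1 at 1.19 (BMP4, PA6 cells), and panels of 1 culture type share their -GFs arrays.

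Set directly against each other, the factors differed on LAMA1, ITGA1 and LAMB2. Of the 26 genes 2 were called in the co-cultures, beside 2.85% of all genes. LAMA1 was higher with FGF2 than with BMP4 by 1.72 ± 0.243 (SE; adjusted p = 0.000558), with all 3 FGF2 arrays above the BMP4 arrays. ITGA1 was lower with FGF2, at 5.47, 5.87 and 6.93 against 6.64, 7.53 and 7.56, a difference of -1.15 ± 0.343 (SE; adjusted p = 0.0678). These ITGA1 groups overlapped, it was detected on 1 of 3 FGF2 arrays, and the call was lost without replicate 1 (-0.84) or 2 (-1.04) of FGF2 and without replicate 2 (-1.01) or 3 (-1.0) of BMP4. By adjusted p alone, 4 of 26 passed beside 7.48% of all genes, adding ITGA5 (0.84) and ITGA2B (0.76). The second probes gave 0.49 for both ITGA5 and ITGA2B, and that of ITGA1 was not detected in the co-cultures and could not show this difference. Without replicate 3 of FGF2 ITGA5 passed both thresholds at 1.04, and without replicate 3 of BMP4 LAMA2 did at -1.21. The LAMA2 difference was -0.38 with all arrays (adjusted p = 0.792) and 0.14 without replicate 2 of BMP4.

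In PA6 cells ITGA1 and LAMB2, 2 of 26 genes, were lower with FGF2 than with BMP4, beside 5.82% of all genes called and 2.94% called lower. ITGA1 differed by -2.43 ± 0.343 (SE; adjusted p = 0.000112) and LAMB2 by -1.64 ± 0.202 (SE; adjusted p = 2.90e-05), and neither overlapped, with -1.54 at the second ITGA1 probe, which was not detected with FGF2. By adjusted p alone, 5 of 26 passed beside 20.3% of all genes, adding ITGA5 (0.95), ITGB5 (0.94) and LAMA1, which was not detected with FGF2 and was at least 1.21-fold lower. Without replicate 2 of FGF2, ITGA11 and ITGB5 passed as well, at 1.07 and 1.11, without replicate 1 of FGF2 ITGA5 passed at 1.01, and without replicate 1 of BMP4 LAMA1 passed at a fitted -1.02. In the partner lists SMOC1 at -1.62 and LAMB1-1 at 1.45 were among 4 of 18 basement membrane genes called, so that the laminin beta chains LAMB2 and LAMB1-1 stood on opposite sides. Of 32 adhesion proteins 6 were lower with FGF2 and 1 was higher, LAYN, a hyaluronan receptor, at 1.57.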

How the data were processed

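RNA of 18 cultures (6 groups of 3) was measured on 1-colour Illumina bead arrays. The authors deposited non-normalized intensity values on a linear scale (55.5 to 72879), summarised with GenomeStudio 2011.01 per the submitters' processing notes, each with a deposited detection p-value. Of the table, 5 stray lines were left out and 0 sample columns were unused. Column names gave each sample, and 0 pairs of arrays were identical. The methods of the study normalize by cubic spline in the scanner software. Here neqc of limma 3.58.1 (R 4.3.3) was used with controls inferred from the detection p-values, an offset of 16, quantile normalization and log2. The offset understates changes of dim genes.

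Probes detected (p under 0.05) on at least 3 arrays were kept, and the probe with the largest mean stood for its gene, as in the study's methods, which left 16446 genes (4561 with over 1 kept probe). Of the members, 11 genes have over 1 kept probe. A single limma fit of 6 group means gave all comparisons, and the growth factor comparisons of a culture type share its arrays. Thresholds (adjusted p under 0.1, absolute log2 fold change over 1) are those of the study. A gene not detected on any array of a group has a bound, computed against, on each array, its own value or that of the dimmest detected probe, whichever is higher. The bound compares group means and carries no sampling error, and the adjusted p beside it is that of the fitted difference. The level of a marker list is the log2 of the summed linear values of its tested genes. Promoters are from RefSeq.

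Named with array values were the called members, up to 6 a comparison, and always LAMA1, LAMC1, ITGA6, ITGA5, ITGAV and ITGB1. Lists of 24 basement membrane partners, 20 ligands and 38 adhesion proteins are given by counts. The values of 1 member are not reported here, though counts include it. Members and lists were chosen with earlier results of these data known, and further genes were named after their values were seen. Alternatives were other normalizations, filters, probe choice, empirical Bayes settings, a replicate block, fewer arrays, a stricter p and leaving out each array. Per the labels a biological replicate took 1 well of every condition. Same-numbered co-culture arrays deviated together (correlations of 0.325 to 0.521 in 9 pairs). Those of PA6 cells (0.0628 to 0.164 in 9 pairs) and pairs across culture types (-0.0248 to 0.175 in 27 pairs) did not all pass 0.1. The fit was also run on simulated data with independent noise on each array, so that run does not cover the correlation of same-numbered arrays.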

Additional observations from a re-analysis of the deposited data

Results flagged for a closer look

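The effect of FGF2 on 3 members and of BMP4 on 1 member differed between the culture types, by the interaction test of the same fit. LAMB2 had an FGF2 interaction of 1.18 ± 0.285 (SE; adjusted p = 0.0148), with a fall in PA6 cells alone. LAMA5 had -1.52 ± 0.397 (SE; adjusted p = 0.0224) and ITGB4 1.28 ± 0.370 (SE; adjusted p = 0.0378), each with differences of opposite sign in the culture types. LAMA1 had a BMP4 interaction of -1.91 ± 0.344 (SE; adjusted p = 0.0253), lower with BMP4 in co-cultures and higher in PA6 cells. LAMA1 was detected on 2 of the 9 PA6 arrays and LAMA5 on 4 of them, and the part of values near the background was not tested.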

How the results depend on the processing

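Among the named members 1 value changed sign, that of LAMA2 for FGF2 against BMP4 in co-cultures, which was -0.38 and not called, 0.14 without BMP4 replicate 2 and -1.21 without replicate 3. Of their values under the alternatives, 587 kept their side of the thresholds, 24 passed newly and 19 no longer passed, and the cause was not tested where not stated. Without background correction 0 members were called for FGF2 in co-cultures, 0 for BMP4 in PA6 cells and 1 for FGF2 against BMP4 in co-cultures, where whole-table counts fell to 275, 135 and 245 genes from 550, 232 and 469. It took them to 533, 604, 68 and 702 from 867 (FGF2, PA6 cells), 957 (FGF2 against BMP4, PA6 cells), 125 (BMP4, co-cultures) and 1216 (FGF2 interaction). Without it ITGA6 (0.54) and ITGAV (-0.82) were no longer called between culture types.

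With every kept probe tested, 4 members were called for FGF2 in PA6 cells, the second probes of ITGA5 and ITGB4 being added. With no detection filter, with only the co-culture arrays or at an adjusted p under 0.05, 1 member each was called for FGF2 against BMP4 in co-cultures, as ITGA1 no longer passed. With only the arrays of 1 culture type, 2 members were called for BMP4 in PA6 cells, and whole-table counts were 10 (BMP4) and 286 (FGF2 against BMP4) in co-cultures. At an adjusted p under 0.05 the counts were 79 for BMP4 in co-cultures and 44 for its interaction, which has 92.

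With a replicate block in the fit, 3 members were called for BMP4 in PA6 cells, adding ITGA11 (adjusted p = 0.0191) and LAMA2 (adjusted p = 0.0969), and ITGA1 joined the FGF2 interaction, 4 in all. The block changed no other member call, and whole-table counts rose to 215 for BMP4 in co-cultures and to 305 for the BMP4 interaction.

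Leaving out 1 array at a time gave 1 to 3 members called for FGF2 in co-cultures, 2 to 3 in PA6 cells, 0 to 1 for BMP4 in PA6 cells, 1 to 3 for FGF2 against BMP4 in co-cultures and 2 to 4 in PA6 cells. It gave 13 to 14 for the culture types, 3 to 4 for the FGF2 interaction, and 0 for BMP4 in co-cultures throughout. The BMP4 counts over all genes went to 52 without replicate 2 of the -GFs co-cultures. Those of its interaction went to 42 without that array and to 54, 55 and 56 without PA6 -GFs replicate 2, -GFs replicate 3 or BMP4 replicate 2. A block on the slide was not run, as the headers name no slides. Signal over background limits the values of LAMA1, LAMA3, ITGA3, ITGAE and ITGB7 in PA6 cells, where fitted differences depend on the background.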
